A study of Mus musculus with 6 samples.

Results

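The 10 genes described here encode 8 cathepsins, the proteases of the lysosome, and 2 cystatins, small proteins that inhibit cysteine cathepsins: Ctsa, Ctsb, Ctsc, Ctsd, Ctsh, Ctsl, Ctss, Ctsz, Cst3 and Cstb. They were taken by name. Each of the 10 had exactly 1 probe set that the platform annotation links to that gene alone, so 10 probe sets of 35557 in the value table, and of the 23410 with a gene symbol, stand for them. Signals were measured in microglia, which are macrophages of brain tissue, cultured from the cerebral cortex of mice aged 2 days, collected after 10 days of culture and kept in fresh dishes for 24 h without any stated treatment. The fosB-null cultures, 3 arrays, came from mice homozygous for fosBG, a null allele of the AP-1 transcription factor gene Fosb, bred by crossing heterozygotes that had been backcrossed to C57BL/6J for 20 generations. The wild-type cultures, also 3 arrays, came from C57BL/6J mice. The labels do not say how many pups went into a culture. The labels call the arrays biological replicates 1 to 3 of each genotype. Arrays with the same number vary together, and they are called pairs 1, 2 and 3 below.

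Cathepsins are made as inactive precursors, are carried to the lysosome by receptors that recognise mannose 6-phosphate, and become active in its acid interior. Most belong to the papain family and cut with a cysteine, whereas cathepsin D cuts with aspartates and cathepsin A with a serine. Microglia use them to digest what they have engulfed and to trim the invariant chain and antigens for MHC class II molecules. Cystatin C, from Cst3, is secreted and restrains cathepsins outside the cell, and cystatin B, from Cstb, does so in the cytosol.

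None of the 10 genes passed the test of fosB-null against wild-type microglia. In the limma fit without pairs the adjusted p was 1 for each, and 0 of 10 passed an unadjusted threshold of 0.05 either. Over all probe sets 0.00427% of probe sets passed the adjusted threshold and 0.722% the unadjusted one. The mean difference, fosB-null minus wild-type, was above 0 in 7 genes and below 0 in 3, with a median of 0.0026 on the log2 scale beside 0.00 over all tested probe sets; 5 of the 7 turned below 0 when each array was centred on its median. In this fit without pairs, the 95% intervals of the 10 genes ran from 0.815-fold to 1.24-fold. With pairs as a block, Ctsl alone of the 10 had a limma p below 0.05 unadjusted, beside 2.31% of all probe sets. It was also the only one with pairs as a random effect, beside 2255 of 23410 probe sets. After adjustment 0 of 10 passed in either fit. The interval of every gene was narrower with pairs as a block, for Ctsd -0.0049 to 0.0088, though exact ties enter that spread. Cathepsin L had the difference farthest from 0 and was lower in fosB-null arrays in every pair. In cultured cells, less RNA per cell and fewer cells of a type cannot be told apart from these signals.

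The cultures carried the signals of macrophages. The microglia and macrophage genes Csf1r, Trem2 and Tyrobp had mean log2 signals of 13.44, 13.61 and 13.56 in fosB-null arrays, against 13.42, 13.62 and 13.56 in wild-type arrays. P2ry12 and Tmem119, which mark microglia in the intact brain, had 8.86 and 9.02 in fosB-null arrays and 8.78 and 9.02 in wild-type arrays. Of the 9 measured microglia markers, 8 had a higher mean in fosB-null arrays and 1 a lower one, with a median difference of 0.024 and 0 called. The largest difference was that of Aif1, 0.094, which was higher in every pair. The 8 astrocyte markers, among them Gfap and Aqp4, averaged between 6.47 and 8.16 over all arrays. Deposited values ran from 1.73 to 14.6, and array medians from 7.76 to 7.92.

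Cathepsin D, the main aspartic protease of the lysosome, had near-equal means in both genotypes. Ctsd had log2 signals of 14.17, 14.25 and 14.12 in fosB-null replicates 1, 2 and 3, against 14.16, 14.25 and 14.12 in the wild-type replicates of the same numbers. Pairs 2 and 3 were identical to the last digit, and pair 1 differed by 0.0059. The mean was 14.180 ± 0.068 in fosB-null and 14.178 ± 0.069 in wild-type arrays (SD, n = 3 each). They differed by 0.0020, with a 95% interval of -0.17 to 0.18. Ctsd is on chromosome 7, as is Fosb, but 1452 measured genes lie between them in gene order, counting Ctsd itself.

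Cathepsin A, a serine carboxypeptidase that also protects the lysosomal enzymes Neu1 and Glb1 from breakdown, was the closest to 0. Ctsa had 13.77, 13.89 and 13.77 in fosB-null arrays, against 13.77, 13.89 and 13.77 in wild-type arrays. Pairs 1 and 3 were identical, and pair 2 differed by 0.0012. The difference was 0.0004 with a 95% interval of -0.18 to 0.18. Its 2 partners gave no call: Neu1 differed by -0.040 and Glb1 by 0.030.

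Cathepsin L, a cysteine endopeptidase, was the member that stood lower in all 3 pairs. Ctsl had log2 signals of 13.25, 13.23 and 13.18 in fosB-null replicates 1 to 3, against 13.37, 13.41 and 13.24 in wild-type replicates 1 to 3. The groups met: the highest fosB-null array, replicate 1, lay just above the lowest wild-type array, replicate 3. Within pairs the difference was -0.12, -0.18 and -0.062. The mean was 13.221 ± 0.036 in fosB-null and 13.341 ± 0.087 in wild-type arrays (SD, n = 3 each). The difference of -0.12, or 1.09-fold lower, had a 95% interval of -0.29 to 0.05. The limma adjusted p was 1, from 0.148 without adjustment. A limma fit with replicate number as a block gave 0.0441 before adjustment, where 2.31% of all probe sets fell below 0.05, and 0.674 after it. The 95% interval of Ctsl in that fit, -0.23 to -0.0069, left out 0. Taking that number as a random effect gave a limma p of 0.00194 unadjusted and 0.172 adjusted, with an interval of -0.18 to -0.064. With the random effect, 2255 of 23410 probe sets fell below 0.05 unadjusted and 0.201% passed after adjustment.

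Being lower in every pair is common on these arrays. It held for 1 of the 10 genes, Ctsl, and for 5.57% of all tested probe sets, and being higher in every pair held for 1 of 10, Ctsh, and 2.20% of all. Among the 3224 probe sets with a mean log2 signal of 11 or above, where all 10 genes lie, 12.7% were lower in every pair and 6.20% higher. In that signal range 4.03% had a difference at or below that of Ctsl, and 6.85% had one as far from 0 in either direction. Groups that do not overlap were found in 0 of the 10 genes and in 1.12% of all probe sets.

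**Figure D1:**
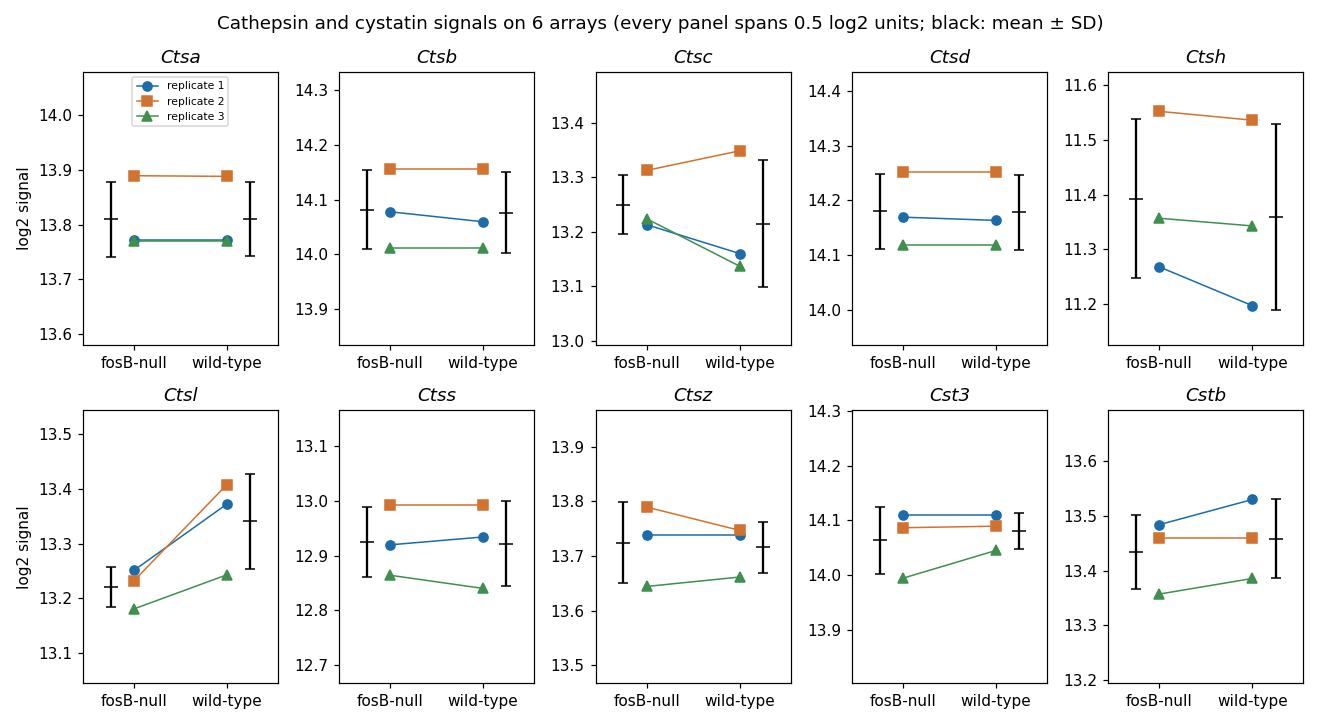
Log2 signal (y axis) of each of the 10 genes on the 3 fosB-null arrays (left) and the 3 wild-type arrays (right), with lines joining arrays of the same replicate number and black bars for the mean ± SD. Every panel spans the same range of log2 signal. Most lines are close to flat, and in the Ctsl panel all 3 slope up towards wild-type.

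The other papain-family endopeptidases had near-equal means. Cathepsin B, which also trims peptides from their carboxyl end, had Ctsb signals of 14.08, 14.16 and 14.01 in fosB-null arrays, against 14.06, 14.16 and 14.01 in wild-type arrays. Pairs 2 and 3 were identical, and the difference was 0.0061 with a 95% interval of -0.17 to 0.19. Cathepsin S stays active at neutral pH and cuts the invariant chain Cd74 in antigen-presenting cells. Ctss had 12.92, 12.99 and 12.86 in fosB-null arrays, against 12.93, 12.99 and 12.84 in wild-type arrays. It was lower in pair 1 by 0.014, identical in pair 2 and higher in pair 3 by 0.024, a mean difference of 0.0032 with a 95% interval of -0.17 to 0.18. Its substrate gene Cd74 differed by -0.14, with 8.83, 9.03 and 8.65 in fosB-null arrays and 8.76, 9.12 and 9.05 in wild-type arrays, and the pairs pointed in different directions.

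The cathepsins that clip residues from the ends of proteins gave no call either. Cathepsin C removes dipeptides and activates the serine proteases of granulocytes and killer lymphocytes. Ctsc had 13.21, 13.31 and 13.22 in fosB-null arrays, against 13.16, 13.35 and 13.14 in wild-type arrays, with pair differences of 0.053, -0.036 and 0.087. The mean difference of 0.035, with a 95% interval of -0.16 to 0.23, was the largest above 0 among the 10 genes, but pair 2 went the other way. Ctsc is also on chromosome 7, 699 measured genes from Fosb. Of the 7 serine proteases that cathepsin C activates or is thought to activate, among them Elane, Prtn3, Gzma and Gzmb, none had a mean log2 signal above 7.39, 5 were identical in all 3 pairs, and 0 passed.

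Cathepsin H, mainly an aminopeptidase, was the member with the widest spread. Ctsh had 11.27, 11.55 and 11.36 in fosB-null arrays, against 11.20, 11.54 and 11.34 in wild-type arrays. It was higher in fosB-null arrays in every pair, by 0.071, 0.016 and 0.014. That is small against the distance between replicates, which spanned 0.36 over the 6 arrays. The mean difference was 0.034 with a 95% interval of -0.24 to 0.31. Cathepsin Z, a carboxypeptidase also called cathepsin X, had Ctsz signals of 13.74, 13.79 and 13.64 in fosB-null arrays, against 13.74, 13.75 and 13.66 in wild-type arrays. It was identical in pair 1, higher by 0.043 in pair 2 and lower by 0.017 in pair 3.

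Both inhibitors had means slightly below wild-type, within the spread of the arrays. Cst3 had 14.11, 14.09 and 13.99 in fosB-null arrays, against 14.11, 14.09 and 14.05 in wild-type arrays. Pair 1 was identical, pair 2 differed by -0.0028 and pair 3 by -0.051. The mean was 14.064 ± 0.061 in fosB-null and 14.081 ± 0.033 in wild-type arrays (SD, n = 3 each). The difference of -0.018 had a 95% interval of -0.18 to 0.14. Cstb had 13.48, 13.46 and 13.36 in fosB-null arrays, against 13.53, 13.46 and 13.39 in wild-type arrays. It was lower by 0.046 in pair 1 and 0.028 in pair 3 and identical in pair 2, a mean difference of -0.025 with a 95% interval of -0.20 to 0.15.

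**Figure D2:**
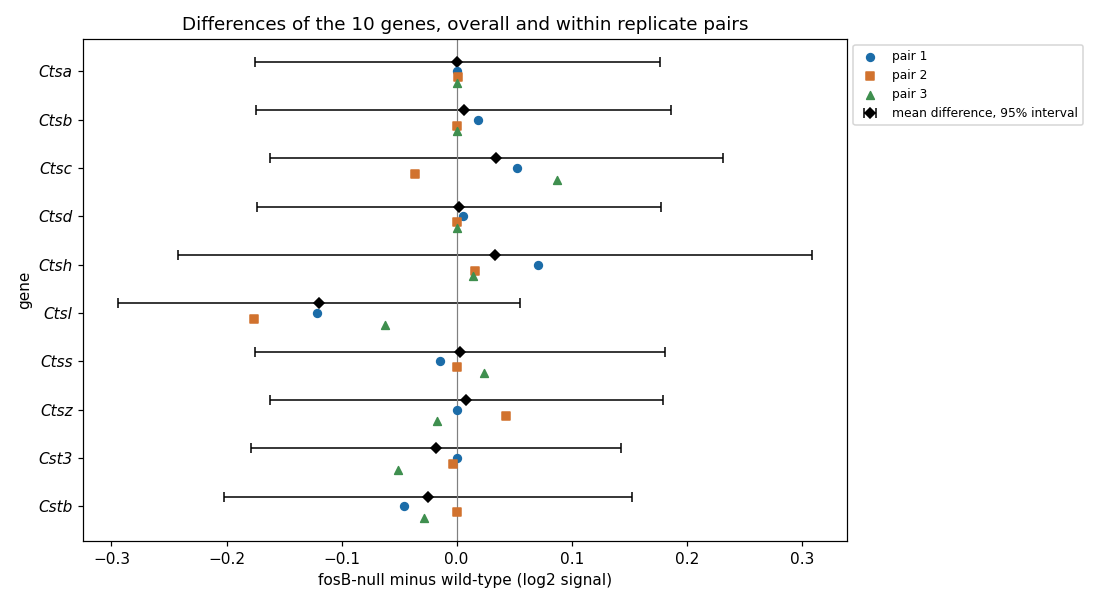
Difference in log2 signal, fosB-null minus wild-type (x axis), for each gene (y axis). Diamonds with bars are the limma difference and its 95% interval over 6 arrays, and coloured points below them are the 3 pairs. Every interval, from the fit without pairs, includes 0, and the 3 pair points of Ctsl lie between -0.18 and -0.062.

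Most of the spread in these genes followed the replicate number. Replicate number took over 80% of the sum of squares over the 6 arrays in 9 of the 10 genes, up to nearly all of it in Ctsa, Ctsd and Ctsb. Ctsl was the exception, with 54.8% for genotype and 36.9% for replicate number. Ctsa, Ctsb and Ctsd were each exactly identical in 2 of the 3 pairs, so only 1 pair could lower their replicate share. In all, 7 of the 10 genes had at least 1 identical pair. Genotype took more than replicate number in 4.19% of all tested probe sets and in 5.15% of those at a log2 signal of 11 or above. The median over the 10 genes was 95.2% for replicate number, beside 92.5% at that signal and 96.7% at 13 or above, where most of the 10 lie. The pattern across numbers was shared: the highest array of 8 of the 10 genes carried number 2, and the lowest array of 9 carried number 3. Over the whole value table the number 2 arrays also had the highest medians, 7.92 in fosB-null and 7.89 in wild-type. The lowest medians were those of number 1, 7.79 and 7.76. The share of all probe sets with the pattern of the 10 genes was not counted. What a number stands for is not given in the labels, so the source of this shared variation was not tested.

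**Figure D3:**
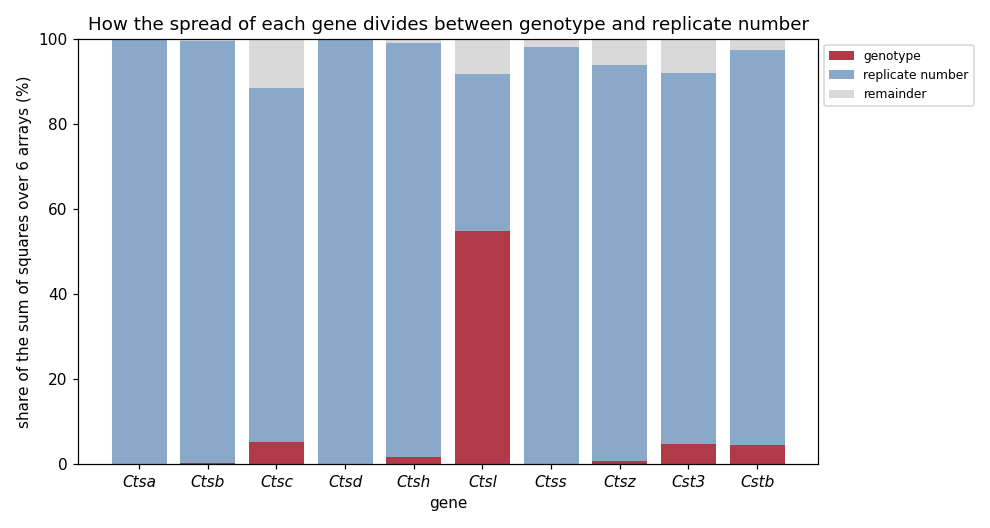
Share of each gene's sum of squares over 6 arrays, in percent (y axis), that goes with genotype, with replicate number and with neither. Genotype takes 54.8% in Ctsl and at most 5.19% in the other 9 genes, Ctsc being the highest of them.

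Exact ties set a limit on these comparisons. Of the 30 within-pair differences of the 10 genes, 10 were exactly 0, with 3 in pair 1, 4 in pair 2 and 3 in pair 3. That is 33.3%, beside 32.1% among probe sets with a log2 signal of 11 or above, 37.9% at 13 or above and 57.6% among all tested. No member was identical in all 3 pairs, as 27.8% of all probe sets were. Ctsa, Ctsb and Ctsd were each identical in 2 pairs, and Ctsc, Ctsh and Ctsl in none. The step that gave identical values on arrays of different genotypes is not known, so a 0 is not read as measured equality.

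The genes whose signals ran most like those of single members had no evident relation to them. For Ctsh, the member with the widest range, the highest Pearson correlations over the 6 arrays were 0.998 each for Rpl14-ps1, Alpi and Olfr183. For Cst3, the member with the narrowest range at 0.11, they were 0.998 for Nadk, Zfp513 and Ppp4r1l-ps. Of 20468 probe sets compared, 3249 had a correlation above 0.9 with Ctsh and 1397 with Cst3. The 6 points share the replicate number and its ties, so these values are descriptions.

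Other genes of the lysosomal protease system were followed in 8 lists. Together the lists name 73 genes, of which 67 were measured by a probe set of their own, and 0 passed the adjusted threshold. At an unadjusted p of 0.05, 1 gene passed, beside 0.722% of all probe sets. By mean, 21 were above wild-type, 27 below and 19 identical in all pairs, and the median was 0.00.

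In this fit without pairs the 1 gene was Cst7, which encodes cystatin F, an endolysosomal inhibitor of cathepsin C that marks activated microglia. Cst7 had log2 signals of 9.64, 9.998 and 9.88 in fosB-null replicates 1 to 3, against 9.64, 9.50 and 9.55 in wild-type replicates 1 to 3. The arrays of pair 1 were identical, so the groups touch, while fosB-null was higher by 0.50 in pair 2 and by 0.33 in pair 3. The mean difference was 0.28 with a 95% interval of 0.026 to 0.53. Its limma adjusted p was 1, from 0.0349 without adjustment. With pairs as a block these were 0.674 and 0.158. With pairs as a random effect they were 0.399 and 0.0171, with an interval of 0.069 to 0.49. Of the other 11 measured cystatins, 7 were identical in all pairs, and the next lowest p-values belonged to Stfa3 and Cst11, with differences of -0.055 and 0.013.

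The 13 other measured cathepsins gave no call. Ctsw, known from killer lymphocytes, differed by -0.055, Ctsr by 0.036 and Ctsq by -0.028, and the mean signals of the list ran from 4.95 to 10.7. Of the 13, 5 were identical in all pairs, among them the rodent placental cathepsins Ctsj, Cts6, Cts7 and Cts8, beside 27.8% of all probe sets. Among other lysosomal proteases, Scpep1, a serine carboxypeptidase related to cathepsin A, had 12.84, 12.78 and 12.60 in fosB-null arrays, against 12.92, 12.86 and 12.67 in wild-type arrays. Its pairs differed by nearly the same amount, -0.079, -0.084 and -0.075, beside an SD of 0.13 over the arrays of each genotype, and its limma unadjusted p was 0.453. With pairs in the model as a block Scpep1 had 0.000287 unadjusted and a limma adjusted p of 0.634. It was the 1 gene of the 67 under 0.05 unadjusted in that fit, beside 2.31% of all probe sets. As a random effect the pairs gave it 0.00375 unadjusted and 0.223 adjusted. Under 0.05 unadjusted in that fit were 5 of the 67 genes and 2255 of all 23410 probe sets. Legumain, from Lgmn, which processes several cathepsins, and tripeptidyl peptidase Tpp1 gave no call, the first with a difference of -0.0014 and the second identical in every pair.

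The machinery that delivers and regulates lysosomal proteases was also without a call. Of 10 measured sorting genes, Gnptg, a subunit of the enzyme that builds the mannose 6-phosphate tag, differed by -0.094. The receptor gene Igf2r, which binds that tag, differed by -0.067 and the sorting receptor gene Sorl1 by 0.057. Among 8 regulators, Tfeb, the transcription factor that drives lysosomal genes, was lower in every pair, by 0.015, 0.14 and 0.17. Its signals were 10.23, 9.94 and 10.18 in fosB-null arrays, against 10.24, 10.08 and 10.36 in wild-type arrays, with a mean difference of -0.11 and a limma unadjusted p of 0.359. With pairs as a random effect, the limma unadjusted p was 0.0165 for Tfeb, 0.0210 for Gnptg and 0.0370 for Igf2r. After adjustment these were 0.399, 0.410 and 0.471. With pairs as a block the unadjusted values were 0.114, 0.144 and 0.148. Fnip2 and Fnip1, partners of the TFEB repressor folliculin, differed by 0.027 and 0.020. The lysosomal membrane genes Lamp2, Mcoln1 and Cd68 differed by 0.029, -0.011 and 0.0086, and Lrp1, an uptake receptor for many proteases and inhibitors, by 0.037.

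Marker lists of cell types and of dividing cells had 0 members called. The median difference was 0.00 for astrocytes, -0.00025 for neurons, 0.012 for endothelium and 0.019 for blood leukocytes. It was 0.025 for fibroblasts and mural cells and 0.024 for microglia. Lists for proliferation, border macrophages and the oligodendrocyte lineage had the medians farthest from 0. The 9 measured proliferation genes of 10 listed had a median difference of 0.71, with pair medians of 0.99, 1.13 and 0.018. All 9 had a higher mean in fosB-null arrays, and 5 were higher in every pair, beside 2.20% of all probe sets. An unadjusted limma p below 0.05 was found in 4 of them, beside 0.722% of all probe sets, but 0 passed after adjustment. The summed linear signal of the 9 ran from 7788 to 13349 in fosB-null arrays and from 4050 to 7802 in wild-type arrays. Border macrophage markers, 7 of 7 measured, had a median difference of 0.13, and their summed signal ran from 22190 to 26537 in fosB-null and from 20837 to 23695 in wild-type arrays. Of these, Mrc1 differed by 0.27, Stab1 by 0.18, Siglec1 by 0.15, Pf4 by 0.13 and Ms4a7 by 0.0099, and Siglec1 was higher in every pair. Stab1, Ms4a7, Pf4, Mrc1 and Siglec1 had mean log2 signals of 13.10, 12.83, 11.24, 11.19 and 10.90 over all arrays. Lyve1 and Cd163 were identical in every pair at log2 signals of 6.91 and 6.58. The oligodendrocyte lineage list, 7 of 8 measured, had a median difference of -0.054 and a summed signal from 2364 to 2509 in fosB-null and from 2443 to 2871 in wild-type arrays. By mean 5 of these 7 genes were below wild-type, 1 was above and 1 was identical in every pair. Of the 7, only Mbp was lower in every pair, as Ctsl was, with a mean difference of -0.21. The part of these differences in the value of Ctsl was not tested. Pair 3 had the smallest difference in the proliferation list, in Mbp and in Ctsl, and whether these go together was not tested.

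**Figure D4:**
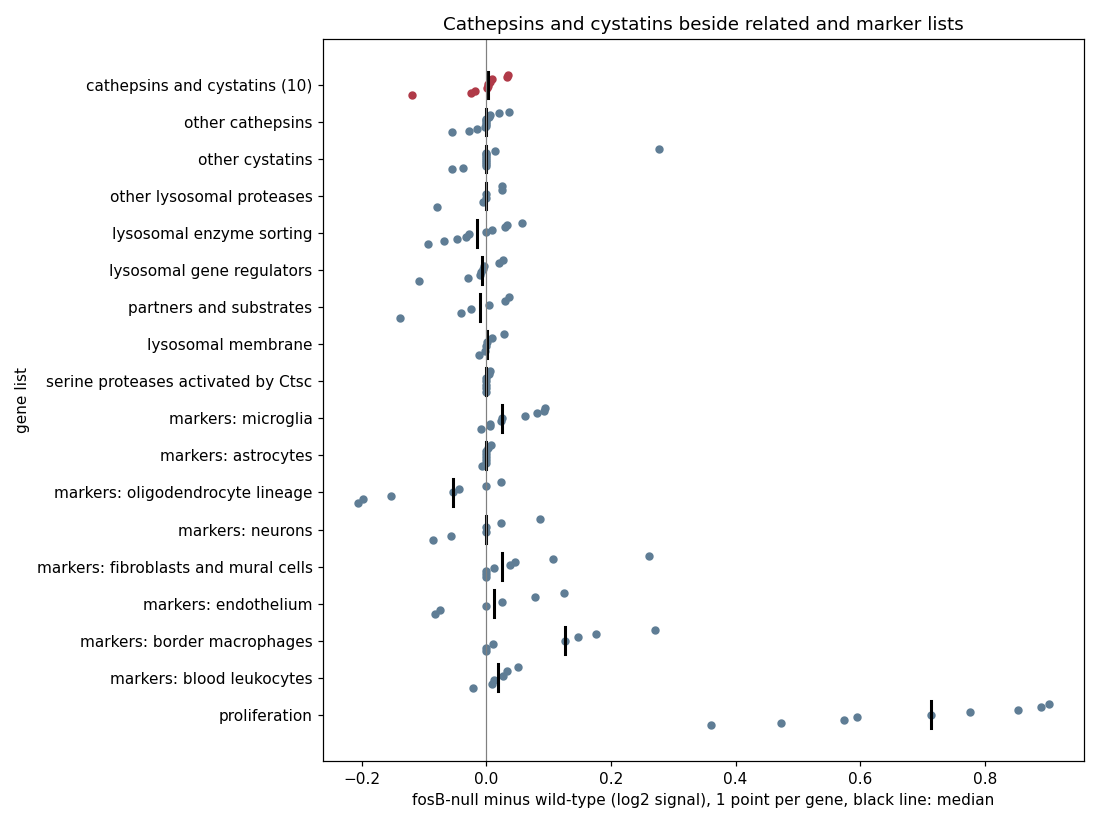
Difference in log2 signal, fosB-null minus wild-type (x axis), of each measured gene in the cathepsin and cystatin set (top row) and in the related and marker lists (y axis), with a black line at each list's median. The 10 genes lie between -0.12 and 0.035, Cst7 stands apart among the other cystatins at 0.28, and the proliferation genes lie between 0.36 and 0.90.

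FosB acts as part of AP-1 dimers, whose DNA motif is TGANTCA, and lysosomal genes often carry the motif CACGTG near their start, where TFEB and related factors bind. RefSeq windows of assembly GRCm38.p6, from 250 bases before to 50 after an annotated start, were at hand for 7 of the 10 genes, 8 windows in all because Ctsa has 2. TGANTCA was in 0 of the 8 windows, beside 7.81% of all 32851 windows. CACGTG was in 3, those of Ctsd, Ctsl and the second Ctsa start, beside 7.15% of all, and the GC box GGGCGG, on either strand, was in 5, beside 35.7%. The start sites used for Ctsl, Ctsc and the second Ctsa window lie 252, 61 and 901 bases inside the annotated gene. No match says only that these letters are absent from that window, and a match is not evidence of binding. The 250 bases before the start are shown for 1 gene of each class whose means were near-equal, the aspartic protease Ctsd at chr7:142387828-142388077 on the minus strand, the cysteine protease Ctss at chr3:95526536-95526785 on the plus strand and the inhibitor Cst3 at chr2:148875513-148875762 on the minus strand. Each is written 5′ to 3′ along its gene, with CACGTG and both orientations of the GC box in capitals.
Ctsd: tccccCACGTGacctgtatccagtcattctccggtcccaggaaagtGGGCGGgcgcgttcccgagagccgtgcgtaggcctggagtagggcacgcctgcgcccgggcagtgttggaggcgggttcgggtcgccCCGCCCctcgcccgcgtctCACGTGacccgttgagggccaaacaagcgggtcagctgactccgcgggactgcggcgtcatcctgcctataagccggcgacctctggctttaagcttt
Ctss: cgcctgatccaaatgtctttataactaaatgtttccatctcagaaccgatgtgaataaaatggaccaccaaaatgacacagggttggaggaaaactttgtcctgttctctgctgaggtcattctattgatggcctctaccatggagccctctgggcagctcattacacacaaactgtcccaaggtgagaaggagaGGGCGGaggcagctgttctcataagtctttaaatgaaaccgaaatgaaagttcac
Cst3: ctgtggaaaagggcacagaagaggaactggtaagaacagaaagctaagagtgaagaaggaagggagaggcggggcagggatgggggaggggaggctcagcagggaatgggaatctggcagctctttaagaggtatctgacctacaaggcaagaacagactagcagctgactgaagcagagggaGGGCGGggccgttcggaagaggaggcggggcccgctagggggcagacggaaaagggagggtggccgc
Ctsd holds CACGTG starting 245 and 98 bases before its start site and GC boxes starting 204 and 117 bases before it. Ctss holds 1 GC box before its start, at 55 bases, and Cst3 holds 1 at 67 bases. G and C make up 67.2% of the Ctsd stretch, 44.8% of that of Ctss and 59.6% of that of Cst3.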

How the data were processed

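RNA of 6 samples, 100 ng each, was measured on Affymetrix whole-transcript arrays, per the labels' protocols. The deposited values are log2 signals, 1 per probe set and array, that the authors made in Affymetrix Expression Console, according to the submitters' processing notes. Their summary method, normalization and genome build are not given in the sources used. That the scale is log2 was inferred from the range of values. Genes come from the platform annotation, in which 21789 probe sets have 1 symbol, 1621 have several and 12147 have none.

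The genotypes were tested with limma 3.58.1 under R 4.3.3 (lmFit, eBayes, two-sided, no block, no signal filter). The Benjamini-Hochberg adjustment ran over the 23410 probe sets with a symbol, at a threshold of 0.05. The fit was tested on simulated data. Arrays that share a replicate number deviated together from their group means (r = 0.91, 0.82 and 0.82 across probe sets), so the numbers were taken as pairs, on the evidence of the values and not of the labels. Exactly tied values are part of these correlations. The labels call the arrays biological replicates without naming separate animals or cultures, so p-values measure the spread between these arrays, and their number limits the precision.

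The members and lists were chosen with earlier results of these data known. Besides the members, the text names the 3 genes with the lowest p in each list, cell markers, the genes most correlated with the widest and narrowest member, and Lgmn, Tpp1, Glb1, Gzma, Gzmb and placental cathepsins, picked after their values were seen. Protein sequences were not used here. Alternatives were a replicate block, fixed or random, 2 scalings, filters, other variance priors, array weights and leaving out arrays.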

Additional observations from a re-analysis of the deposited data

How the results depend on the processing

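In all fits tried, 0 of the 10 genes and 0 of the 67 other lysosomal genes passed the adjusted threshold. Probe sets called over the whole table numbered 1 in the unblocked fit, 0 with the replicate block, 47 with the random replicate block (13 higher, 34 lower) and 0 with the replicate block with its prior limited to probe sets that are not tied in every pair, a fit chosen after seeing the data. Leaving out single arrays or a pair gave 0 to 2, with 2 without wild-type replicate 3 and 0 without both arrays of any 1 number. The replicate block changed no call among the 10 genes, and their median difference stayed at 0.0026 with it.

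Ctsl was lower in every fit, from -0.17 to -0.086 when arrays were left out, -0.13 after quantile normalization and -0.14 after median centring. The sign of the members near 0 depends on scaling. Median centring gave -0.024 for Ctsa, -0.018 for Ctsb, -0.022 for Ctsd, -0.021 for Ctss and -0.015 for Ctsz, and quantile normalization -0.0051 for Ctsa, -0.0065 for Ctsd and -0.0024 for Ctss. Array weights gave -0.00082 for Ctsa and -0.0025 for Ctss. The median of the 10 genes was -0.021 after median centring and -0.0038 after quantile scaling. With arrays left out it ran from -0.033 to 0.039, Ctsa from -0.039 to 0.040, Ctsb from -0.031 to 0.047, Ctsc from -0.0045 to 0.10, Ctsd from -0.034 to 0.039, Ctsh from -0.047 to 0.12, Ctss from -0.038 to 0.038, Ctsz from -0.024 to 0.048, Cst3 from -0.041 to 0.017 and Cstb from -0.061 to 0.014. Leaving out 1 array of a pair leaves the shared deviation of its partner in the difference. Every gene has 1 probe set, so the choice of probe set changes nothing.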
